A study of Mus musculus with 12 samples.

Results

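Netrins, Slits and their receptors were followed in 12 wells of C2C12, mouse myoblasts that form multinucleated myotubes in culture. The 10 genes, taken by symbol from the 56941 rows of the deposited count table, were the ligands Ntn1, Ntn4, Slit2, Slit3 and Rgma and the receptors Unc5b, Unc5c, Neo1, Robo1 and Robo2. All 10 were found, each on 1 row. Of the wells, 6 held the optogenetic line with genotype ChR2::tdTomato, which carries the light-gated channel ChR2 and the red fluorescent protein tdTomato (ChR2 below), and 6 held the Wild-Type line (wild type below). Both lines were plated on fibrin (a layer of 1 mm, from 8 mg of fibrinogen per mL), grown for 2 days and then differentiated for 6 days in medium that held horse serum and IGF-1, with aminocaproic acid in both media. No light treatment is named in the labels, and the sources used here do not say whether the ChR2 line is a single clone or which promoter drives its transgene. Nothing states that wells of 1 line were separate cultures, so every p-value measures the spread between wells only.

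Netrins and Slits are secreted guidance cues, best known for steering growing axons and also made by muscle. Netrins attract through DCC and neogenin (Neo1) and repel through receptors of the UNC5 family. Slits act on Robo receptors, mostly as repellents. Neogenin also binds the repulsive guidance molecules, of which Rgma is one, and in mouse muscle it has been tied to myotube formation.

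Total counts ran from 7388760 to 12229500 in ChR2 libraries and from 1061070 to 13628600 in wild-type libraries. Wild-type wells 2 (1061070) and 5 (2809670) were the shallowest, and 7SL RNA, which has no poly(A) tail, took 24.8% and 8.37% of their counts, against at most 0.0341% elsewhere. The protocol says that low-input samples were ribodepleted and names none, so the values of the 10 genes' tests and the counts of calls over all genes are given with all 12 libraries and with the 10 left without these wells. Cell type markers were counted over 12 libraries. Of 8 skeletal muscle markers, all were tested, 0 were higher and 3 were lower in ChR2. Their summed level was 9470 to 11433 CPM (counts relative to the TMM-scaled library size) in ChR2 and 8892 to 24256 CPM in wild type. Without wild-type wells 2 and 5, Ttn fell by 0.79 on the log2 scale instead of 2.00, and Myog by 0.67 instead of 0.84, both still called. In those 10 libraries Des lost its call (edgeR adjusted p = 0.112) and Mymk was called lower (edgeR adjusted p = 0.00121). All 5 endothelial and all 5 neuronal markers stayed under 1 CPM in every library, and Rbfox3, Snap25 and Tie1 were at 0 counts throughout. Of 6 fibroblast markers, 2 were higher in ChR2 and 0 lower, with a summed level of 586 to 747 CPM against 280 to 1121 CPM. Of the 4 Schwann cell markers (2.26 to 3.98 CPM summed in ChR2, 2.50 to 5.07 in wild type) and the 4 immune markers (2.77 to 5.77 and 1.31 to 9.18 CPM) none was called. The part of cell makeup in the differences below was not tested, and in bulk RNA fewer cells of a type and less RNA per cell cannot be told apart.

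ChR2 wells held more message of the netrin receptor Unc5c, of the ligand Ntn1 and of the Slit receptor Robo1, and less of the neogenin ligand Rgma, whose sign turned when the authors' TPM values of all 12 libraries were tested instead of counts, and held when those of the 10 libraries were. Unc5c differed most, at 6.66 ± 1.39 CPM in ChR2 against 0.667 ± 0.554 CPM in wild type (mean ± SD, n = 6 wells each). Of the 9 genes that passed the filter on low counts, 3 were called higher, beside 14.0% of all 13168 genes tested, and 1 lower, beside 14.1% (adjusted p under 0.05 by edgeR's quasi-likelihood test, with the Benjamini-Hochberg method). Without wild-type wells 2 and 5, Unc5b and Ntn4 were called higher as well. That made 5 higher, beside 18.9% of 13484 genes, and 1 lower, beside 16.3%. The lines did not overlap for 2 of the genes over 12 libraries, Unc5c and Ntn1, both with ChR2 above, where 8.57% of all tested genes lay above and 6.52% below without overlap. Over the 10 libraries Unc5b joined them, making 3 above and 0 below, where 13.7% of all genes lay above and 11.2% below. Slit3 did not pass the filter.

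The promoters of 3 receptor genes are shown, of which Unc5c and Robo1 were called higher in ChR2 over 12 libraries and Unc5b in the 10 libraries alone by the same test, as RefSeq gives them on GRCm38.p6, from 250 bases before to 50 after the annotated start. RefSeq's table matched 8 of the 10 genes, with 10 promoters in all, and had no entry used here for Ntn1 and Rgma. The Unc5c window lies at chr3:141465314-141465613, plus strand, the Unc5b window at chr10:60831532-60831831, minus strand, and the Robo1 window at chr16:72662899-72663198, plus strand. In the gene annotation GENCODE M21, Robo1 runs from 72308306 to 73046095 on that strand, so its window surrounds a start inside the gene. Which start of Robo1 these cells use was not tested. The windows were searched on both strands for the E-boxes CAGCTG and CACCTG, which muscle helix-loop-helix factors can bind. The core of a TEAD site, GGAATG, was searched for too. So was a loose MEF2 pattern that accepts any base at its middle positions, so a match to it need not be a MEF2 site. Capitals mark a match.
Unc5c: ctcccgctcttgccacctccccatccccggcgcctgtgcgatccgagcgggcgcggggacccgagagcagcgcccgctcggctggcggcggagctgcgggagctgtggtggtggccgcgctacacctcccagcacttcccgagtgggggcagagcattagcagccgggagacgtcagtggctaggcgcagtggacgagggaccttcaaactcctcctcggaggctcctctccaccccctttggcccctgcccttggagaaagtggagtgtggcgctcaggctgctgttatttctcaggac
Unc5b: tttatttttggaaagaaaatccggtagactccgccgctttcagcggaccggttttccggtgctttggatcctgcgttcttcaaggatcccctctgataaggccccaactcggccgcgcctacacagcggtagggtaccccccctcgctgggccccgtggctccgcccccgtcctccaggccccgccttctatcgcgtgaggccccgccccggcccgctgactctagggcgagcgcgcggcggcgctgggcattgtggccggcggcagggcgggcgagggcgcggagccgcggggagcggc
Robo1: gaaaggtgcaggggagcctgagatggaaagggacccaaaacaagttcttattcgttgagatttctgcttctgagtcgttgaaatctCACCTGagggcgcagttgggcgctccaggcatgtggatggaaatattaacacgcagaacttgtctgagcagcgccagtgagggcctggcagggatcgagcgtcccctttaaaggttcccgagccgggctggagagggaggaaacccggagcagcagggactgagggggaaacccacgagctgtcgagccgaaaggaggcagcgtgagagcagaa
The Robo1 window held 1 match, CACCTG, and the Unc5c and Unc5b windows held 0. Among all 32851 promoters of this length, 16.3% held CAGCTG, 20.2% CACCTG, 3.69% the loose MEF2 pattern and 14.7% GGAATG. These windows were rich in G and C, at 68.3% in Unc5c, 69.7% in Unc5b and 57.0% in Robo1, beside a median of 52.7% over all promoters. They held 24, 36 and 15 CpG pairs, beside a median of 7.

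Among the ligands, Ntn1, the secreted netrin of the axon guidance literature, stood at 49.8, 46.0, 49.7, 48.8, 48.4 and 43.9 CPM in ChR2 wells 1 to 6. In wild-type wells 1 to 6 it stood at 17.2, 38.01, 28.0, 40.0, 40.7 and 22.4 CPM. All ChR2 wells lay above all wild-type wells, and the wild-type wells were spread much wider. The log2 fold change was 0.67 (SE 0.19, edgeR adjusted p = 0.0156), a 1.59-fold difference. Without wild-type wells 2 and 5 it was 0.85 (SE 0.18, adjusted p = 0.00313). Leaving out any 1 library kept the call, with an adjusted p of at most 0.0382 over 12 libraries. On log2(TPM + 1) of 12 libraries the difference was 0.89 and was not called (limma adjusted p = 0.095), and on the same scale in the 10 libraries it was 0.70 and was called (limma adjusted p = 0.0108).

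Ntn4, a netrin that binds laminins in basement membranes, was nearly level across the ChR2 wells. It stood at 42.9, 42.8, 45.9, 43.8, 44.5 and 44.8 CPM there and at 32.7, 39.3, 44.3, 35.7, 43.9 and 31.2 CPM in wild-type wells 1 to 6. Of the wild-type wells, 4 lay below the lowest ChR2 well and wells 3 and 5 lay among the ChR2 values. It was not called over 12 libraries (log2 fold change 0.23, 95% interval -0.0021 to 0.47, edgeR adjusted p = 0.128). It was called without wild-type wells 2 and 5 (0.31, adjusted p = 0.0233), a call that ended when wild-type well 1 or 6 was also left out (adjusted p up to 0.0915), without the filter on low counts (0.0585) and on log2(TPM + 1) (limma adjusted p = 0.213). Upper-quartile scaling gave a call over 12 libraries (0.30, adjusted p = 0.0457).

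Rgma, a membrane-anchored ligand of neogenin that also serves bone morphogenetic protein (BMP) receptors, was the one gene lower in ChR2. It stood at 48.1, 40.9, 42.1, 34.8, 49.8 and 37.6 CPM in ChR2 wells and at 41.1, 47.2, 62.4, 61.5, 58.2 and 67.2 CPM in wild-type wells 1 to 6. Wild-type wells 3, 4, 5 and 6 lay above every ChR2 well, while wells 1 and 2 lay within the ChR2 range. It fell by 0.43 on the log2 scale (SE 0.14, edgeR adjusted p = 0.031), and by 0.44 without wild-type wells 2 and 5 (adjusted p = 0.0213). The call lay near the threshold and ended in 7 of the 12 fits that left 1 library out, where adjusted p reached 0.0734. Those were the fits without ChR2 well 2, 3, 4 or 6 or wild-type well 3, 4 or 6. Over the 12 fits the log2 fold change ran from -0.51 to -0.37. The call also ended under upper-quartile scaling (-0.37, edgeR adjusted p = 0.0651) and without the filter on low counts (-0.42, adjusted p = 0.0673). With limma on log2(TPM + 1) of all 12 libraries it ended too, and the difference was 0.03. On log2(TPM + 1) of the 10 libraries Rgma was called lower (-0.47, limma adjusted p = 0.0376). Of its exonic bases in GENCODE M21, 4.65% are shared with an antisense gene, and the sources used here do not say whether counting used strand.

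Slit2, the best studied Slit, stood at 6.70, 8.15, 6.16, 8.38, 6.63 and 6.63 CPM in ChR2 wells. In wild-type wells it ran from 1.31 CPM in well 2, where it was a single count, through 2.07, 4.88, 5.35 and 8.51 CPM in wells 1, 3, 5 and 6 to 9.14 CPM in well 4. Wild-type wells 4 and 6 thus lay above every ChR2 well and the other 4 below every one. The log2 fold change of 0.30 had a 95% interval from -0.35 to 0.95 and did not pass the test (edgeR adjusted p = 0.498). Nor did the 0.21 of the 10 libraries (interval -0.46 to 0.88, adjusted p = 0.628). Slit3 was barely detected, with 7 counts over all ChR2 wells and 4 over all wild-type wells, the 4 all in well 6. A count of 3 was taken as the floor of detection, so no fold is given.

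Among the receptors, Unc5c, which mediates repulsion from netrin-1, separated the lines most. Its counts were 102, 65, 43, 50, 95 and 45 in ChR2 wells and 3, 1, 1, 7, 1 and 19 in wild-type wells 1 to 6. These gave 8.23, 7.16, 5.41, 6.87, 7.68 and 4.59 CPM in ChR2 wells and 0.270, 1.31, 0.0921, 0.581, 0.357 and 1.39 CPM in wild-type wells. Every ChR2 well lay above every wild-type well. Wild-type wells 1, 2, 3 and 5 held no more than 3 counts. In well 2, where 3 counts are worth 3.93 CPM, a single count cannot place the gene. The log2 fold change was 3.43 (SE 0.41, edgeR adjusted p = 9.04e-05), or 10.8-fold. In the 10 libraries it was again 3.43 (SE 0.43, adjusted p = 0.000108). It ran from 3.14 to 4.20 when 1 library was left out and was highest without wild-type well 6. Unc5c passed the filter through the ChR2 wells, all 6 of which lay over its limit of 0.997 CPM on unscaled library sizes, as did 1 wild-type well.

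**Figure D1:**
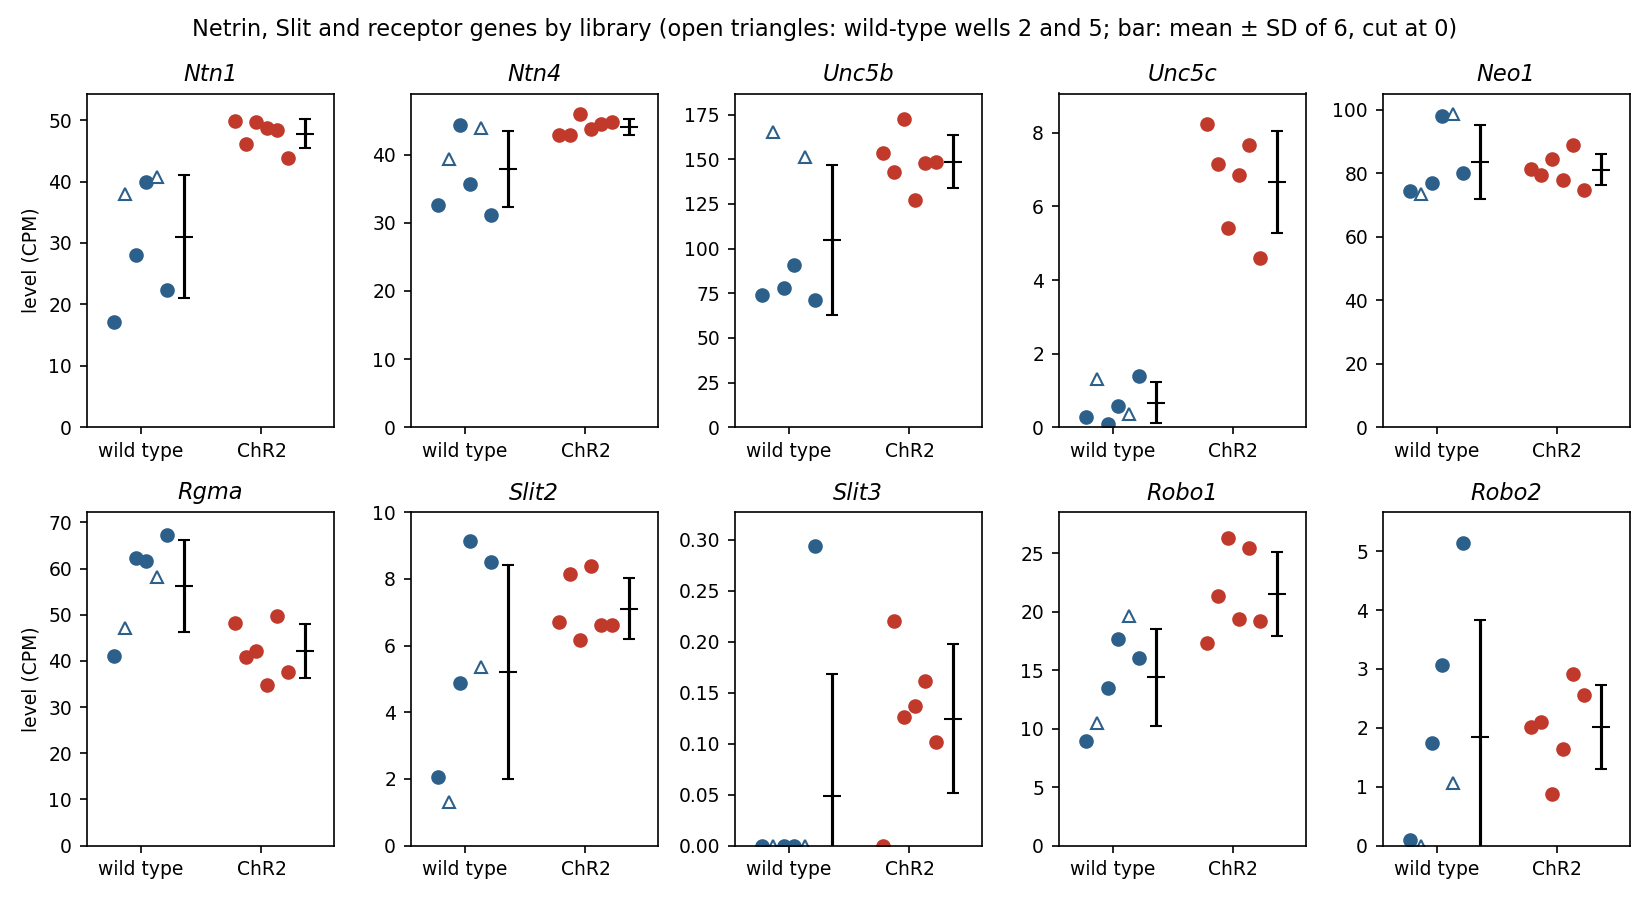
Level of each gene in CPM on a linear axis from 0, with 1 point per well, wild type in blue and ChR2 in red; open triangles are wild-type wells 2 and 5, and black bars give the mean ± SD of 6 wells. Unc5c and Ntn1 show no overlap between the lines, and for Unc5b the 2 open triangles lie among the ChR2 wells while the other 4 wild-type wells lie below.

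Unc5b, a netrin receptor known from vessel sprouting and from apoptosis in the absence of ligand, was high in the 2 shallow wild-type wells. It stood at 154, 143, 172, 127, 148 and 149 CPM in ChR2 wells. Wild-type wells 1, 3, 4 and 6 held 74.0, 77.9, 90.5 and 70.9 CPM, while wells 2 and 5 held 165 and 151 CPM, from 126 and 424 counts. Both wells lay within the ChR2 range and the other 4 below it. Over 12 libraries the log2 fold change was 0.54 (SE 0.20) and missed the threshold (edgeR adjusted p = 0.0613). It passed over the same libraries with upper-quartile scaling (0.60, adjusted p = 0.0417), without the filter on low counts (0.57, adjusted p = 0.0351) and by DESeq2's Wald test (0.55, adjusted p = 0.0365). Without the pair it was 0.94 (SE 0.10, adjusted p = 2.74e-05), a 1.92-fold difference, and leaving out well 2 or well 5 alone also gave a call (adjusted p = 0.0092 and 0.0141). Whether RNA selection, depth or the cells set the level in wells 2 and 5 was not tested.

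Neo1, the DCC-family receptor shared by netrins and repulsive guidance molecules, stood at 81.2 ± 5.00 CPM in ChR2 against 83.6 ± 11.8 CPM in wild type. The wild-type wells ran from 73.4 to 98.8 CPM around the ChR2 range of 74.9 to 89.0 CPM. Its log2 fold change of -0.05 had a 95% interval from -0.28 to 0.19 (edgeR adjusted p = 0.789), and it was -0.0040 without wild-type wells 2 and 5 (interval -0.20 to 0.19). With upper-quartile scaling its sign turned, to 0.015.

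Robo1, a receptor of Slits, stood at 17.4, 21.4, 26.3, 19.4, 25.5 and 19.2 CPM in ChR2 wells and at 8.91, 10.5, 13.5, 17.7, 19.6 and 16.1 CPM in wild-type wells 1 to 6. Wild-type wells 4 and 5 reached into the ChR2 range and the other 4 lay below it. The log2 fold change was 0.56 (SE 0.19, edgeR adjusted p = 0.0359). It was 0.63 (adjusted p = 0.0153) in the 10 libraries. Over 12 libraries the call ended in 5 of the fits that left 1 library out, those of ChR2 wells 2, 3 and 5 and of wild-type wells 1 and 3, where adjusted p reached 0.0825, and on log2(TPM + 1) (0.56, limma adjusted p = 0.213). In the 10 libraries it ended without wild-type well 3 (adjusted p = 0.0503) and on log2(TPM + 1) (0.43, limma adjusted p = 0.0961). Robo2, the second Slit receptor, was low and uneven, at 0.880 to 2.91 CPM in ChR2 wells. Wild-type wells 1 to 6 held 0.0900, 0, 1.75, 3.07, 1.07 and 5.13 CPM. The wild-type wells spanned the ChR2 wells on both sides, and the fold change of -0.15 (interval -1.30 to 1.00, edgeR adjusted p = 0.87) was 0.44 without wild-type well 6. In the 10 libraries it was -0.30 (interval -1.60 to 0.99, adjusted p = 0.726).

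**Figure D2:**
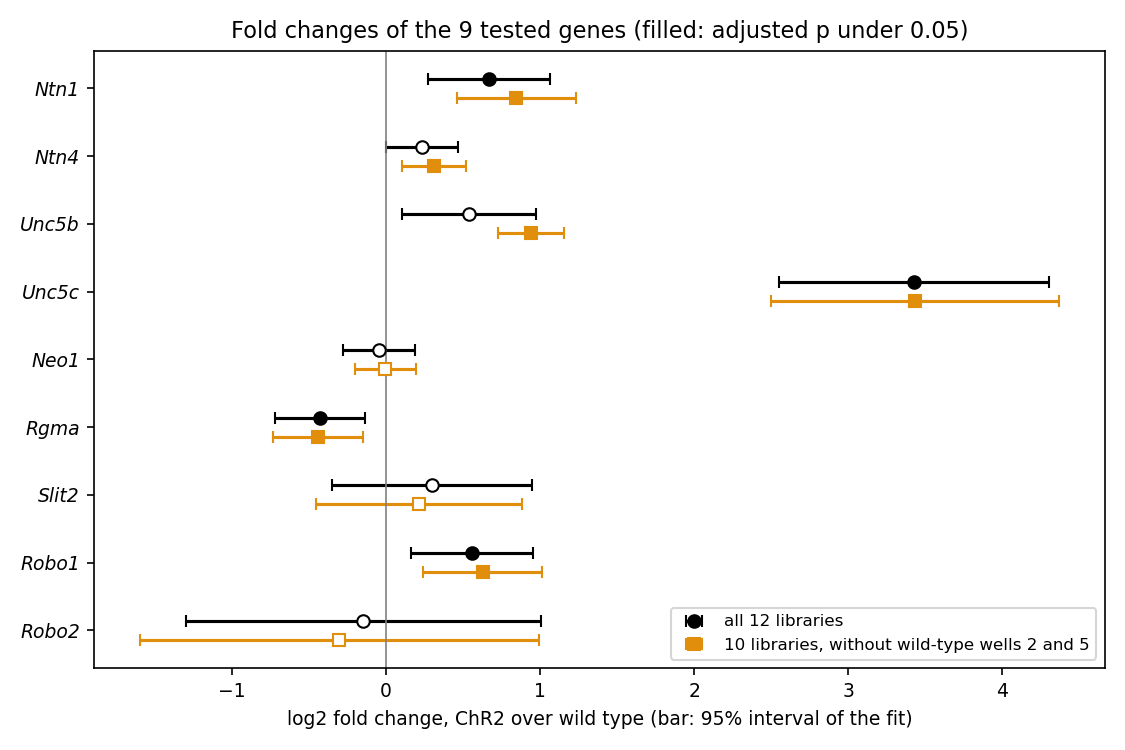
Log2 fold change of ChR2 over wild type with its 95% interval for the 9 tested genes, in 12 libraries (black circles) and without wild-type wells 2 and 5 (orange squares); filled symbols passed an adjusted p of 0.05. Unc5c lies near 3.43 in both fits, Unc5b moves from 0.54 to 0.94, and the intervals of Neo1, Slit2 and Robo2 span 0.

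Within the wild-type line the 4 deep wells differed among themselves. Well 1 was the lowest of wells 1, 3, 4 and 6 for Ntn1 (17.2 CPM), Robo1 (8.91 CPM), Slit2 (2.07 CPM), Robo2 (0.0900 CPM) and Rgma (41.1 CPM). Well 4 was the highest of them for Ntn1 (40.0 CPM), Robo1 (17.7 CPM), Slit2 (9.14 CPM), Unc5b (90.5 CPM) and Neo1 (98.2 CPM). Well 6 was the highest for Robo2 (5.13 CPM), Unc5c (1.39 CPM) and Rgma (67.2 CPM).

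Levels were compared between genes by TPM, the authors' value per transcript length, scaled to a fixed sum per library, in the 6 ChR2 wells and in wild-type wells 1, 3, 4 and 6. In ChR2 wells Unc5b led with a median of 31.7 TPM, above Neo1 at 20.0 TPM in 6 of 6 wells. Rgma (16.9 TPM) and Ntn4 (16.3 TPM) followed and were not separated, with Rgma higher in 3 of 6 wells. Ntn1 (11.5 TPM), Robo1 (3.55 TPM) and Slit2 (1.47 TPM) came next, each below the gene before it in 6 of 6 wells. Unc5c (0.950 TPM) and Robo2 (0.945 TPM) came last before Slit3 and were not separated, with Unc5c higher in 3 of 6 wells. The TPM of Robo2 did not follow its counts. ChR2 well 3 had the fewest counts (7) and the highest TPM (1.47), while ChR2 well 2 had 19 counts and the lowest TPM (0.553). Nor did the TPM of Slit2 follow its counts closely. ChR2 wells 1 and 6 held 6.70 and 6.63 CPM of Slit2 but 2.18 and 0.998 TPM. In ChR2 well 3 Robo2 exceeded Slit2, which stood at 1.16 TPM there. The place of Robo2 beside Unc5c and Slit2 is therefore uncertain.

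In the 4 deep wild-type wells Rgma (24.9 TPM) and Neo1 (21.5 TPM) led, not separated, with Rgma higher in 2 of 4 wells. Unc5b came next at 18.5 TPM, below Neo1 in 4 of 4 wells. Ntn4 (13.3 TPM), Ntn1 (6.42 TPM), Robo1 (2.78 TPM) and Slit2 (1.71 TPM) kept the order they had in ChR2. Robo2 (1.06 TPM) lay above Unc5c (0.113 TPM) in 3 of 4 wells.

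Ratios within a library do not depend on its depth or scaling. The TPM of Unc5b over that of Neo1 was 1.52 to 1.93 in the 6 ChR2 wells and 0.804 to 0.863 in wild-type wells 1, 3, 4 and 6. In wild-type wells 5 and 2 it was 1.28 and 2.10. The 2 receptors thus stood in opposite order in the ChR2 wells and in the 4 deep wild-type wells, with wells 2 and 5 in the order of the ChR2 wells. For the ligands, Ntn1 over Ntn4 was 0.622 to 0.777 in ChR2 wells and 0.381 to 0.766 in wild-type wells. The 2 netrins kept 1 order in all 12 libraries, with Ntn4 above Ntn1, and their ratios overlapped between the lines.

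**Figure D3:**
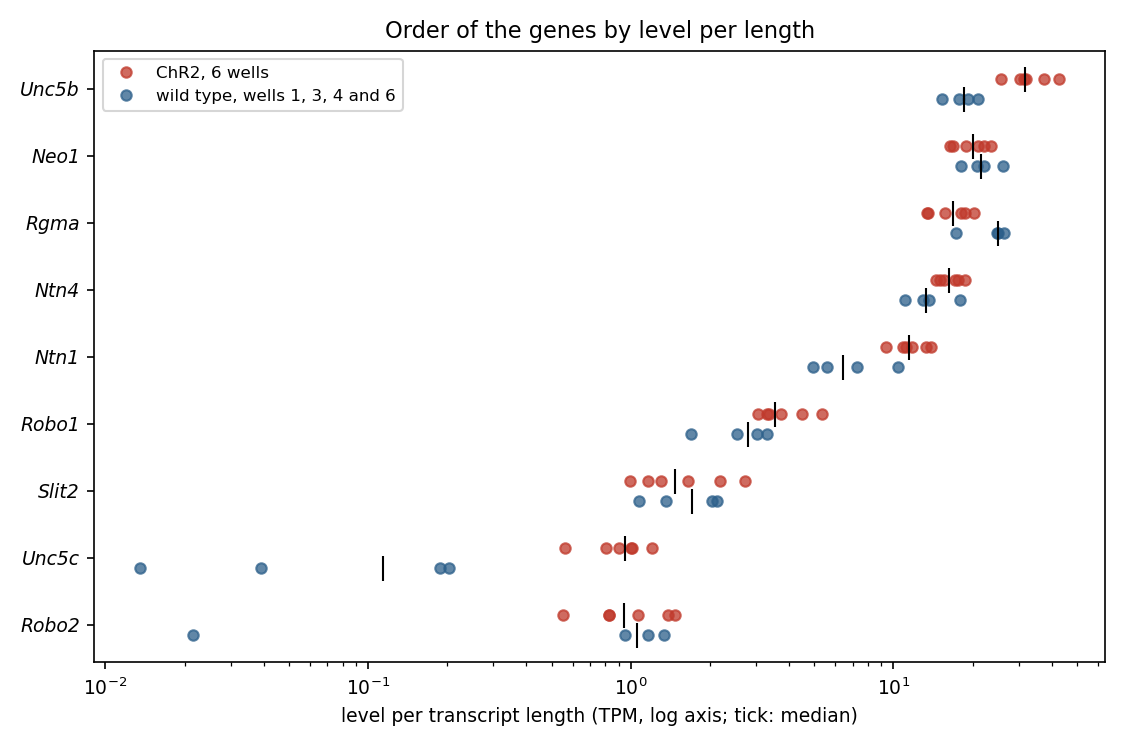
Level per transcript length in TPM on a log axis for 9 genes, 1 point per well, with ChR2 in red, the 4 deep wild-type wells in blue and a black tick at the median; Slit3 is left out because it is listed at 0 in several libraries. Unc5b heads the ChR2 wells at a median of 31.7 TPM, and Rgma heads the wild-type wells at 24.9 TPM.

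The genes whose profile over the 12 libraries was most like that of Unc5c were Elmo1, Efcab11 and Mmp16. Likeness was the root mean square difference of log2 CPM, each gene centred on its own mean. It was 0.582 for Elmo1, an engulfment and motility gene, 0.633 for Efcab11, which encodes an EF-hand protein, and 0.667 for Mmp16, a membrane-bound metalloproteinase. The median over all compared genes was 1.75. Elmo1 stood at 2.59 ± 0.253 CPM in ChR2 against 0.0916 ± 0.120 CPM in wild type (n = 6 each). That wild-type mean lies under 0.22 CPM, the worth of 3 counts in the deepest library, wild-type well 6. Elmo1 thus passed the filter on low counts through the ChR2 wells, and its level in wild type is not resolved. Most like Rgma were Tcaf2, Ptpn3 and Clec16a, at 0.0939, 0.127 and 0.129, beside a median of 0.457. The points share their libraries, so genes that differ between the lines by a like amount lie close by construction.

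Beyond the 10 genes, 70 others of these pathways were listed in 4 groups, and 57 passed the filter. Of the 57, 12 (21.1%) were higher in ChR2 and 13 (22.8%) lower, beside the 14.0% and 14.1% of all genes, with a median log2 fold change of -0.09 beside -0.02 over all genes. Values of the pathway genes below are those of the 12 libraries unless stated, and the 16 of them named as called kept their call and direction in the 10 libraries. Without wild-type wells 2 and 5, 19 (33.3%) were higher and 14 (24.6%) lower, beside 18.9% and 16.3%, with a median of -0.02 beside -0.0014.

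Most other netrin pathway genes were close to silent. Of 11 in that group, 4 passed the filter and 1 was called higher, Dscam, a cell adhesion gene reported to bind netrin, at 2.57 ± 0.929 CPM in ChR2 against 0.666 ± 0.354 CPM in wild type (log2 fold change 1.67, SE 0.32, edgeR adjusted p = 0.00191). Dscam passed the filter through the ChR2 wells, 6 of which reached its limit beside 1 wild-type well, and with no filter it was called too (1.68, adjusted p = 0.00367). The classic netrin receptor Dcc had 1 count in a single library and 0 in the other 11. Unc5a and Unc5d, the remaining UNC5 receptors, had at most 8 and 1 counts in any library. Flrt2, whose protein binds UNC5 receptors, was at 68.0 ± 6.21 against 53.2 ± 10.6 CPM and was not called over 12 libraries (adjusted p = 0.064). Without wild-type wells 2 and 5, 3 of the 4 were called higher, Dscam, Flrt2 and Ntng2, the last of which was named after its value was seen.

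Partners of neogenin and of the repulsive guidance molecules moved both ways, with 2 of 13 tested genes higher and 4 lower (median log2 fold change -0.23). Hjv, the muscle and liver member of the Rgma family, was at 159 ± 18.2 CPM in ChR2 against 243 ± 49.8 CPM in wild type (-0.61, SE 0.15, edgeR adjusted p = 0.00707). Cdh15, the M-cadherin of muscle cells, fell by 0.55 (adjusted p = 0.00919), or by 0.38 in the 10 libraries. Boc, a surface protein of myogenic cells, fell by 0.49 (adjusted p = 0.026), a call that ended in 4 of the 12 fits without 1 library (those without ChR2 well 1, 2 or 4 or wild-type well 3, adjusted p up to 0.0597) and without the filter on low counts (0.0586). The BMP ligand Bmp4 was at 3.90 ± 0.743 against 1.22 ± 0.834 CPM (1.59, adjusted p = 0.00138), and Bmp6 rose by 1.13 (adjusted p = 0.0213), a call that ended without the filter on low counts (1.12, adjusted p = 0.0719). Bmp6 too passed the filter through the ChR2 wells, with 6 at its limit beside 1 wild-type well. On log2(TPM + 1) of 12 libraries Hjv (-0.14), Cdh15 (-0.09) and Boc (-0.10) were not called (limma adjusted p = 0.867, 0.91 and 0.857). The median over all genes was 0.35 in that setting. Of the 14 pathway genes named as called and tested there, in all groups, 4 kept their call: Bmp4, Sdc3, Dock1 and Pak1.

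In the group of Slit and Robo relatives and their heparan sulfate partners, 4 of 10 tested genes were higher and 1 lower (median 0.05). The syndecans Sdc3 and Sdc2, which carry heparan sulfate, were at 251 ± 29.1 against 116 ± 35.2 CPM and 485 ± 20.1 against 253 ± 84.0 CPM. Their log2 fold changes were 1.12 and 0.93 (edgeR adjusted p = 0.000682 and 0.00198). Ext1, an enzyme that builds heparan sulfate chains, rose by 0.88 (adjusted p = 0.000931). Dystroglycan (Dag1), which binds Slit, fell by 0.41 (adjusted p = 0.032), a call that ended in 7 of the 12 fits without 1 library (any ChR2 well from 2 to 6, or wild-type well 3 or 4, adjusted p up to 0.0755), with upper-quartile scaling (0.0706) and without the filter on low counts (0.105). Slit1 was at 1.92 ± 0.493 against 2.60 ± 1.35 CPM and was not called (adjusted p = 0.561), Robo4 had 0 counts in all 12 libraries, and Robo3 had at most 3.

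Of 30 tested genes of downstream signalling, 5 were higher and 8 lower (median -0.10), or 9 and 8 without wild-type wells 2 and 5. Dock1, an activator of Rac, was at 26.8 ± 3.13 against 11.6 ± 5.19 CPM, a rise of 1.21 (SE 0.23, edgeR adjusted p = 0.0015). Pak1, a kinase driven by Rac and Cdc42, was at 73.5 ± 7.44 against 38.1 ± 5.47 CPM (0.97, adjusted p = 9.24e-05). Of the 3 Ena/VASP actin regulators, Evl rose by 0.74 (adjusted p = 0.00246) and Enah fell by 0.74 (adjusted p = 0.000313, or -0.46 and 0.462 by limma on log2(TPM + 1)), while Vasp was at 94.1 ± 7.67 against 119 ± 23.4 CPM and was not called (adjusted p = 0.0745). Abl2, a tyrosine kinase, was at 58.2 ± 7.54 against 154 ± 83.3 CPM (-1.38, adjusted p = 0.00274, or -0.91 without wild-type wells 2 and 5). Srgap3, a GTPase-activating protein of the Slit-Robo pathway, fell by 0.72 (adjusted p = 0.00421), or by 0.49 in the 10 libraries. Vasp was named to complete its family, after its value was seen.

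**Figure D4:**
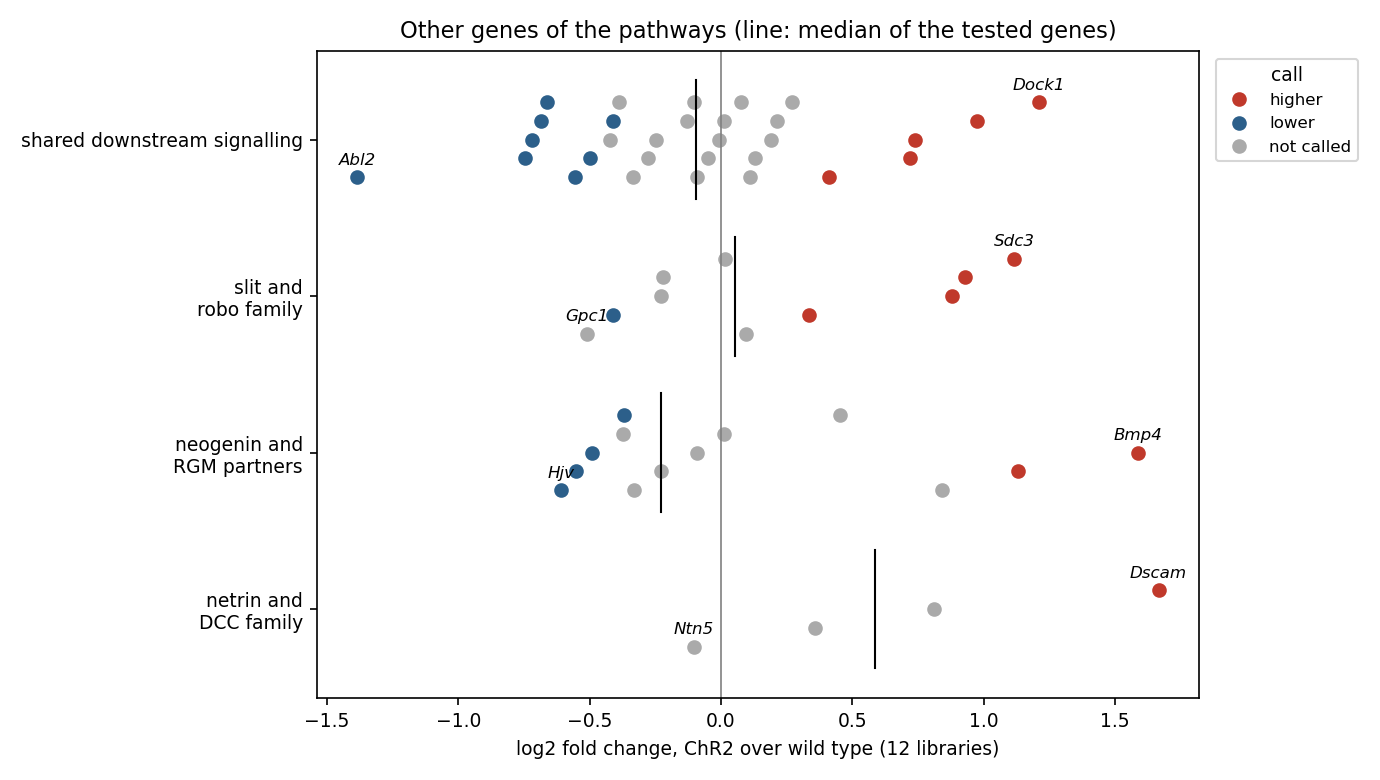
Log2 fold change of ChR2 over wild type in 12 libraries for the 57 tested genes of 4 groups, 1 point per gene, red where called higher, blue where called lower and grey where not called, with a black line at each group's median. Called genes lie on both sides of 0 in each group but that of the netrins, where Dscam alone was called.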

How the data were processed

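The authors deposited estimated counts per gene, which need not be whole, and TPM for the same rows, with 1 column per well. Named in the submitters' processing notes are Salmon, STAR, bedtools (2.25.0) and BWA (0.7.12-r1039), along with 3 builds, GRCm39, mm10 and hg19, but the sources used here do not say which of them made the tables.

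Counts were rounded and filtered with filterByExpr (minimum count 10), scaled by TMM, and tested across all genes by edgeR 4.0.16 (R 4.3.3), robust quasi-likelihood, with line as the only term. SE is the log2 fold change over the root of the test's F. CPM uses TMM-scaled library sizes. Reads were amplified and carry no molecular identifiers, so the floor of 3 counts covers counting error only. The lowest chi-square per degree of freedom between wells of a line was 5.09, so each library counted once.

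All 10 genes were named. From the other lists, up to 3 called rises and 3 called falls each, of at least 1 CPM, were named, or the 2 most abundant where none was called, and other genes where stated. Dcc, Unc5a, Unc5d, Flrt2, Slit1, Robo3 and Robo4 were named after their values were seen, to complete their families. The genes and lists were chosen with earlier results of these data known. Alternatives used DESeq2 1.42.0 and limma 3.58.1. Figures were drawn with matplotlib 3.10.9. For the likeness of profiles, the 3 nearest tested genes with an established symbol were taken for the called rise and the called fall of largest size (log2 CPM, prior count 2).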

Additional observations from a re-analysis of the deposited data

Results flagged for a closer look

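A gap test for 1 well far from the others of its line was run on 52 sets of 6 wells, for the 10 genes and 16 named pathway genes, and marked 3, where chance marks about 1 in 20. Slit3 stood at 0.293 CPM in wild-type well 6, from 4 counts, and at 0 in the other 5 wild-type wells. Dscam stood at 0 CPM in wild-type well 2, which had the fewest counts, with the next lowest well at 0.630 CPM. Evl stood at 15.1 CPM in wild-type well 1, with the next lowest well at 26.2 CPM.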

How the results depend on the processing

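Over 12 libraries, the count of the 10 genes called higher was 3 and became 5 with upper-quartile scaling and 5 without wild-type wells 2 and 5. It became 4 by DESeq2's Wald test and 4 with no filter on counts, and ran from 2 to 4 when 1 library was left out. With limma it became 0 on log2(TPM + 1), 0 on log2(TPM + 0.1) and 1 on log2(TPM + 1) with no filter. The count called lower, 1 (Rgma), became 0 with upper-quartile scaling, with no filter on counts, in all 3 TPM settings and with the replicate block, and ran from 0 to 1 when 1 library was left out, also without wild-type wells 2 and 5. Genes called numbered 3701 (1838 higher, 1863 lower) and fell to 620 (592 higher, 28 lower), 271 (254 and 17) and 425 (402 and 23) in the 3 TPM settings; the first 2 moved the median log2 fold change of all genes from -0.02 to 0.35 and 0.43. Upper-quartile scaling gave 2127 rises and 1451 falls. In the 10 libraries, log2(TPM + 1) called 2 of the 10 genes higher instead of 5. Signs turned for Neo1 (0.015 with upper-quartile scaling, 0.32 on log2(TPM + 1) with and without filter, 0.35 on log2(TPM + 0.1)), Rgma (0.031 on log2(TPM + 1) with and without filter, 0.054 on log2(TPM + 0.1), all over 12 libraries, beside -0.47 and a call on log2(TPM + 1) of the 10), Robo2 (0.31 on log2(TPM + 1) with no filter, 0.21 with the block) and, without wells 2 and 5, Slit2 (-0.0080 on log2(TPM + 1)). With 1 library left out, Neo1 ran from -0.082 to 0.0065 and Robo2 from -0.45 to 0.44, and without wells 2 and 5 Neo1 ran from -0.073 to 0.089, Slit2 from -0.096 to 0.46 and Robo2 from -0.71 to 0.33. Of the 16 pathway genes named as called, 1 lost its call with upper-quartile scaling (Dag1), 3 with no filter and 3 with the replicate block (Bmp6, Boc and Dag1 in both; block adjusted p = 0.0558, 0.0802 and 0.106), 10 of 14 tested on log2(TPM + 1), 12 of 14 on log2(TPM + 0.1) and 13 on log2(TPM + 1) with no filter; no sign turned in these settings. The causes of these changes were not tested. Wells that share a number did not deviate together (correlations -0.144 to 0.0954), 1 of 12 wells correlated best with its own number, and the fit with the replicate block called 2641 genes, with Rgma at -0.41 (adjusted p = 0.0972). Unc5c and Robo2 could not be tested on TPM with the filter of 1 TPM in 6 libraries. Depth limits Unc5c, Slit2, Slit3 and Robo2 in wild-type well 2, where 3 counts are worth 3.93 CPM. It also limits Unc5c, Slit3 and Robo2 in wild-type well 5, where 3 counts are worth 1.07 CPM and these genes held 1, 0 and 3. Among the deep wild-type wells, Unc5c held 3 counts in well 1 and 1 in well 3, and Robo2 held 1 in well 1.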
